A study of Mus musculus with 36 samples.

Results

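The comparison set the early subjective night against the middle of the subjective day in the suprachiasmatic nucleus (SCN) of mice in which MEK1/2, the kinases that activate ERK, were inhibited with U0126. It held 6 of the 36 arrays of the series, taken by their labels alone: 3 arrays of U0126-Sham at circadian time 15 (CT15) and 3 of U0126-Sham at CT4. All animals were wild-type C57BL/6J mice between 8 and 14 weeks of age, with a guide cannula in the lateral ventricle, and had spent 2 days in constant darkness after a 12 h light, 12 h dark cycle. U0126-Sham mice received 10 mM U0126, DMSO-Sham mice received the DMSO vehicle, and neither saw light. The corresponding Light groups were given 100 lux for 10 min. The SCN of 2 mice under 1 treatment was pooled for each array, and each group held 3 arrays. The labels give an infused volume of 3 µL and collection 60 min after the pulse or sham, where the methods of the study give 2 µL and 50 min and write the times as ZT. The drug entered the ventricle, so its reach was not limited to the SCN, and ERK phosphorylation was not measured on the arrays. The question was which differences between CT15 and CT4 stood while MEK was inhibited, and whether they differed from those in vehicle.

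The SCN is the master circadian pacemaker of the mammalian brain. In its core loop, CLOCK and BMAL1 (encoded by Arntl) bind E-box motifs and drive Per and Cry genes, whose products then inhibit CLOCK and BMAL1, while REV-ERB and ROR receptors set the rhythm of Arntl in a second loop. The PAR bZIP factors, DBP among them, carry the rhythm to D-box genes. SCN neurons stay in phase through peptides and their receptors, above all VIP with VPAC2 and vasopressin with its V1a receptor, and the SCN signals onward through prokineticin 2. The ERK cascade relays retinal input to SCN transcription at night, and ERK activity in the SCN also varies over the day without light.

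Values are log2 intensities, and each gene was read by the brightest of its probe sets. A gene was said to have passed when its limma p-value, adjusted by Benjamini-Hochberg over 65956 probe sets, was at most 0.1 and its fold change was above 1.3. Of 30176 genes, 442 were higher at CT15 than at CT4 under U0126 (1.46%) and 209 were lower (0.693%). Among 19131 protein-coding genes the balance was the other way, with 34 higher (0.178%) and 163 lower (0.852%). The scaling bears on this balance. Of the genes that passed, 67.9% were higher with the deposited values and 46.4% after quantile normalization, and among coding genes the share was 17.3% and 9.09%. Single arrays moved the counts too. Without CT4 replicate 1, 163 genes were higher and 135 lower. Without CT15 replicate 2, 221 were higher. Without CT4 replicate 3 or CT15 replicate 1, 386 and 331 were lower, and without CT15 replicate 3, 124 were. The 3 CT15 arrays lay wholly above the 3 CT4 arrays for 2657 genes (8.81%) and wholly below them for 4368 (14.5%). The arrays compared also differed in their medians by group. Over all probe sets tested the median was 4.54 to 4.56 at CT4 and 4.61 to 4.66 at CT15, which held the highest of the 36 arrays, while over coding genes it was 6.0 to 6.05 at CT4 and 5.97 to 5.98 at CT15. No array correlated with the rest at a mean below 0.986.

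The pools differed in composition. Xist, the RNA that coats the inactive X chromosome, was at 9.97, 9.25 and 10.25 at CT4 and at 10.52, 9.88 and 3.79 at CT15. By this gene CT15 replicate 3 stood apart. The mean level of 4 sex-linked genes was 5.14, 6.91 and 5.26 at CT4 and 5.28, 7.01 and 6.32 at CT15. CT4 replicate 2 and CT15 replicates 2 and 3 were its high arrays, so the pools also differed in sex-linked genes where Xist was high. The differences of the 4 genes from CT4 to CT15 ran from -1.76 to 1.35. Their mean thus joins genes that moved in opposite directions and does not give the sex of a pool. The methods of the study state that each experimental group had as many females as males. With the Xist level as a covariate, 435 genes were higher and 195 lower. This covariate mainly marks CT15 replicate 3, and the part of pool sex in other results was not otherwise tested. Pmch, which encodes melanin-concentrating hormone and marks neurons lateral to the SCN, was at 4.54, 9.84 and 3.67 at CT4 and at 9.48, 4.64 and 3.69 at CT15. Arrays of both groups were thus high or low in Pmch. The mean level of 8 reactive astrocyte genes was 6.31, 6.20 and 7.58 at CT4 and 5.80, 7.64 and 7.31 at CT15, and that of 20 interferon-stimulated genes was 4.99, 5.01 and 6.36 at CT4 and 4.90, 6.07 and 5.63 at CT15. CT4 replicate 3 and CT15 replicates 2 and 3 were the high arrays of both lists, no gene of either passed, and their part in other results was not tested. As tissue was measured in bulk, fewer cells of a type and less RNA per cell cannot be told apart in any result.

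Of the genes that passed, Fabp7, Rgs16, Rasl11b, Prok2 and Avp had the largest differences, and all 5 fell at CT15. The largest changes were picked among genes whose groups did not overlap, so non-overlap in them is no further support. Fabp7, a fatty acid-binding protein of astrocytes and neural progenitors, was at 9.56, 9.48 and 9.52 at CT4 and at 7.77, 7.84 and 8.15 at CT15. It fell by 1.60 (log2, SE 0.0979, adjusted p = 5.09e-11), a 3.04-fold difference between groups that did not overlap. Rgs16, a GTPase-activating protein that shortens signaling by Gi and Gq and is itself rhythmic in the SCN, was at 10.36, 9.87 and 10.42 at CT4 and at 8.75, 8.63 and 8.82 at CT15. All its CT15 arrays were below all its CT4 arrays, and it fell by 1.48 (SE 0.165, adjusted p = 3.44e-05). Rasl11b, a small GTPase of the RAS superfamily, was at 7.32, 7.19 and 7.34 at CT4 and at 6.16, 5.90 and 5.84 at CT15, and fell by 1.31 (SE 0.158, adjusted p = 7.06e-05). Tmem181a, a predicted transmembrane protein, was at 11.12, 10.62 and 10.51 at CT4 and at 9.35, 9.84 and 9.42 at CT15. It fell by 1.22 (SE 0.257, adjusted p = 0.00715), and its second probe set fell by 0.89 (adjusted p = 0.00302).

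In the other direction, Rasd1 was the most raised protein-coding gene. It encodes a dexamethasone-induced RAS protein that modulates how the SCN responds to light, and was at 7.46, 7.41 and 7.23 at CT4 and at 8.78, 8.63 and 8.41 at CT15. The groups did not overlap and the rise was 2.36-fold (1.24 on the log2 scale, SE 0.159, adjusted p = 0.000182). These differences were close to those in vehicle for Rasl11b and Rasd1. From CT4 to CT15 in DMSO-Sham, Rasl11b differed by -1.3 and Rasd1 by 1.39, and the difference between the arms was -0.01 for Rasl11b (95% interval -0.47 to 0.45) and -0.15 for Rasd1 (-0.61 to 0.31). For Rgs16 the vehicle value was -1.18 and the difference between arms -0.30 (-0.78 to 0.17). For Tmem181a it was -1.73, with a difference of 0.51 (-0.23 to 1.26). None of these 4 passed the test of the difference. Fabp7 did and is taken up with the genes that differed between arms. Also among the largest decreases were Xlr3b, an X-linked gene at 4.90, 5.49 and 5.08 at CT4 and at 4.45, 4.08 and 4.55 at CT15 (-0.79, adjusted p = 0.0574), and the immunoglobulin segment Ighv1-80, at 3.07, 3.14 and 4.17 and at 2.71, 2.78 and 2.48 (-0.80, adjusted p = 0.0149). Both were dim, and neither passed in vehicle.

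**Figure D1:**
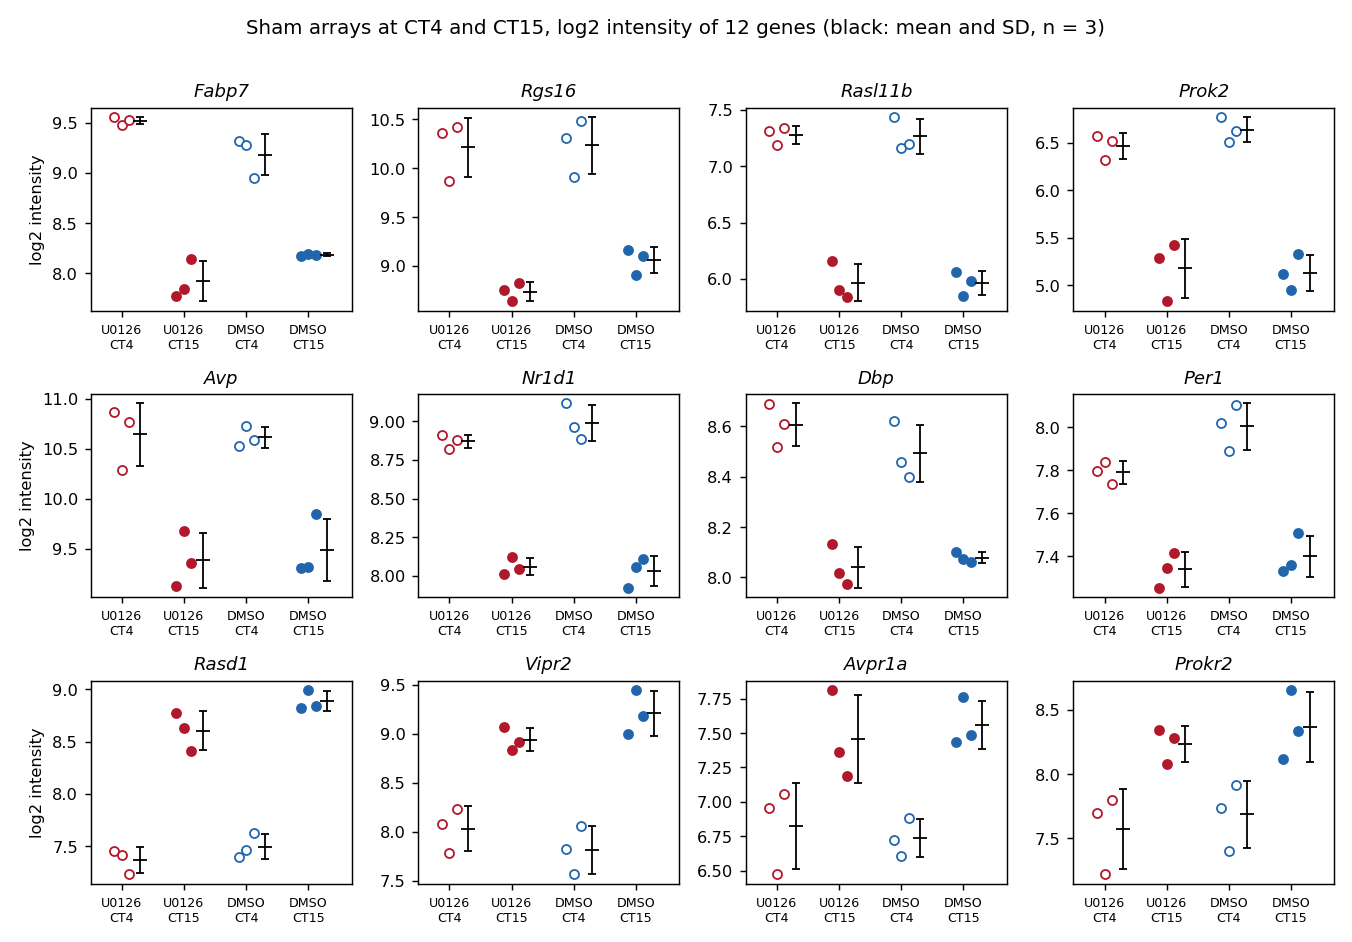
Log2 intensity of 12 genes on each Sham array at CT4 (open) and CT15 (filled), U0126 in red and DMSO in blue; black bars give the mean and SD (n = 3 arrays). The CT4 and CT15 arrays under U0126 do not overlap in any of the 12 panels, as for Rgs16 (9.87 to 10.42 against 8.63 to 8.82) and Rasd1 (7.23 to 7.46 against 8.41 to 8.78). Non-overlap was a condition for naming the largest changes. Over all genes, the CT15 arrays lay wholly above for 8.81% and wholly below for 14.5%.

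Of 11 SCN neuropeptide genes measured, 3 were lower at CT15 under U0126 and none passed as higher, with a list median of -0.31 against -0.02 over all genes (of which 0.693% were lower). Prok2, the secreted SCN output factor, was at 6.57, 6.31 and 6.52 at CT4 and at 5.29, 4.83 and 5.42 at CT15. It fell by 1.29 (SE 0.19, adjusted p = 0.000553), and in vehicle the difference was -1.5. Avp, the vasopressin precursor of the SCN shell, was at 10.87, 10.29 and 10.77 at CT4 and at 9.13, 9.68 and 9.36 at CT15. It fell by 1.26 (SE 0.256, adjusted p = 0.0056), against -1.12 in vehicle. Neither gene's groups overlapped, and the difference between arms was 0.21 for Prok2 (95% interval -0.34 to 0.76) and -0.14 for Avp (-0.88 to 0.61). Penk, the enkephalin precursor, was at 8.41 ± 0.12 at CT4 and 8.00 ± 0.20 at CT15 (SD, n = 3) and fell by 0.42 (adjusted p = 0.00633). It lost the call without CT4 replicate 1 or CT15 replicate 3, and in vehicle it differed by -0.20 and did not pass. Vip overlapped between times, at 9.13, 9.03 and 9.63 at CT4 and 10.07, 8.94 and 9.52 at CT15, and did not pass (0.25, SE 0.275, adjusted p = 0.703). Gal, the galanin precursor, differed by -1.14 (SE 0.419, adjusted p = 0.107), and its CT15 arrays spread from 5.65 to 7.45.

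Of 12 SCN receptor genes, 3 were higher at CT15, where 1.46% of all genes and 0.178% of coding genes were, and none passed as lower. All 3 are receptors of SCN peptides. Vipr2, which encodes the VIP receptor VPAC2, was at 8.08, 7.78 and 8.23 at CT4 and at 9.06, 8.83 and 8.92 at CT15, groups that did not overlap, and rose by 0.91 (SE 0.237, adjusted p = 0.0226). Avpr1a, the V1a vasopressin receptor, was at 6.95, 6.47 and 7.05 at CT4 and at 7.82, 7.36 and 7.19 at CT15, and rose by 0.63 (SE 0.178, adjusted p = 0.0333). Prokr2, the prokineticin receptor, was at 7.70, 7.22 and 7.80 at CT4 and at 8.35, 8.08 and 8.28 at CT15, and rose by 0.66 (SE 0.191, adjusted p = 0.0373). Thus the ligand genes Avp and Prok2 were lower at CT15 while the genes of their receptors were higher. Avpr1a and Prokr2 both lost the call without CT4 replicate 2 or CT15 replicate 1, and Prokr2 also without CT15 replicate 3. The vehicle differences were 1.40 for Vipr2, 0.82 for Avpr1a and 0.68 for Prokr2, and the difference between arms had an interval of -1.17 to 0.20 for Vipr2, -0.71 to 0.32 for Avpr1a and -0.57 to 0.53 for Prokr2. Adcyap1r1, the PACAP receptor, was 1.25-fold lower (-0.32, adjusted p = 0.00604), under the fold threshold. Mtnr1a, the MT1 melatonin receptor, was at 5.51 ± 0.03 and 5.84 ± 0.08 (SD, n = 3) and also stayed under it (0.33, adjusted p = 0.0877).

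Of 29 circadian clock genes listed, 26 were measured, and under U0126 4 were lower at CT15 and none passed as higher, with a list median of -0.07. Of all genes 0.693% were lower, and of coding genes 0.852%. Nr1d1, which encodes the repressor REV-ERB alpha, was at 8.91, 8.82 and 8.88 at CT4 and at 8.01, 8.12 and 8.05 at CT15. It fell by 0.81 (SE 0.0938, adjusted p = 4.51e-05), with SDs of 0.04 at CT4 and 0.05 at CT15. Dbp was at 8.69, 8.52 and 8.61 at CT4 and at 8.13, 8.02 and 7.97 at CT15, and fell by 0.57 (SE 0.0736, adjusted p = 0.000208). Per1, of the repressor arm, was at 7.80, 7.84 and 7.73 at CT4 and at 7.25, 7.35 and 7.42 at CT15. It fell by 0.45 (SE 0.0871, adjusted p = 0.00403). Fbxl21, an F-box protein that acts on cryptochrome stability, was at 7.06, 6.96 and 7.03 at CT4 and 6.67, 6.44 and 6.48 at CT15, and fell by 0.48 (SE 0.116, adjusted p = 0.014). All 4 genes had CT15 arrays that lay wholly below their CT4 arrays, as did 14.5% of all genes. As the 4 were picked because they passed as lower, this adds little.

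Each of these 4 also passed as lower in vehicle, by -0.96 for Nr1d1, -0.41 for Dbp, -0.60 for Per1 and -0.53 for Fbxl21, and no clock gene passed the test of the difference between arms. Per2 differed by -0.32 under U0126 (SE 0.0581, adjusted p = 0.00265) and by -0.30 in vehicle, in both cases under 1.3-fold. Arntl was at 7.68, 7.66 and 7.71 at CT4 and at 8.20, 7.94 and 8.01 at CT15, a 1.29-fold difference (0.37, SE 0.0912, adjusted p = 0.0166) just under the threshold, where in vehicle its difference of 0.49 passed. Of the other activators, Clock differed by 0.15 and Npas2 by 0.18, against 0.32 for each in vehicle, and Arntl2 by -0.10, against -0.13 in vehicle. Cry1 differed by 0.18 and Cry2 by -0.18, against 0.25 and -0.27 in vehicle. Nr1d2, which encodes REV-ERB beta, differed by -0.28 (adjusted p = 0.00601) and Tef, a PAR bZIP factor, by -0.23 (adjusted p = 0.0373), both under the fold threshold. The other receptors, Rora and Rorb, differed by -0.21 and -0.07. Hlf, Nfil3, Bhlhe41, Csnk1d, Csnk1e, Fbxw11, Btrc, Usp2 and Timeless lay between -0.14 (Usp2) and 0.08 (Timeless), and none of them passed in either arm. Per3 did not pass and was at 6.90 ± 0.01 and 6.88 ± 0.03 (SD, n = 3). Bhlhe40, the bHLH repressor DEC1, was the clock gene that departed most from vehicle. It was at 8.19, 8.40 and 8.12 at CT4 and 8.18, 8.02 and 8.41 at CT15, groups that overlapped, and differed by -0.03 under U0126 against -0.49 in vehicle. That difference of 0.46 (95% interval 0.07 to 0.85) had an adjusted p of 0.33.

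Of 10 clock-controlled output genes, Rgs16 passed as lower and Rasd1 as higher, where 0.693% of all genes were lower and 1.46% higher. Tspan33, a tetraspanin, differed by -0.32 (adjusted p = 0.0105), under the fold threshold. Syt10, a synaptotagmin, differed by 0.26 (adjusted p = 0.386) and passed in vehicle with 0.49. Wee1, Cipc, Id2, Gpr176, Nampt and Pdk4 lay between -0.10 (Id2) and 0.06 (Nampt).

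**Figure D2:**
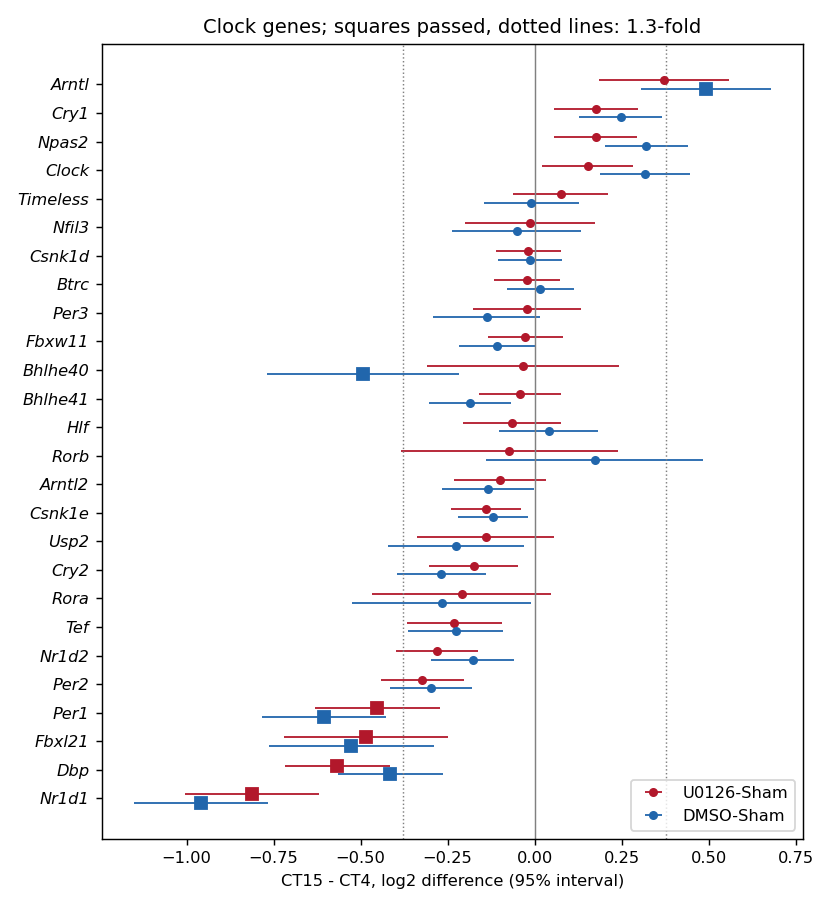
Difference between CT15 and CT4 (log2, with 95% interval from limma) of the 26 measured clock genes in U0126-Sham (red) and DMSO-Sham (blue); squares passed and dotted lines mark 1.3-fold. Nr1d1, Dbp, Per1 and Fbxl21 passed in both arms, and Arntl and Bhlhe40 in vehicle only, with differences under U0126 of 0.37 and -0.03.

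As E-boxes and the related E'-boxes carry the clock's transcriptional drive, the 250 bases upstream of the start were read from RefSeq (build GRCm38.p6) for 14 of the protein-coding genes above or among the largest changes. An entry was found for 13 of them, and 6 held CACGTG (E-box) or, on either strand, CACGTT (E'-box, AACGTG on the other strand). The windows of 5 of these, all genes that were lower at CT15, are shown. Tmem181a, the other gene with a motif, was also lower and is not printed. Its E-boxes began 92 and 24 bases upstream, at only 1 of its annotated starts, which is also true of the motif in Per1. Capitals mark the motif, and each run ends at the base before the annotated start.
Per1, chr11:69098699-69098948, plus strand: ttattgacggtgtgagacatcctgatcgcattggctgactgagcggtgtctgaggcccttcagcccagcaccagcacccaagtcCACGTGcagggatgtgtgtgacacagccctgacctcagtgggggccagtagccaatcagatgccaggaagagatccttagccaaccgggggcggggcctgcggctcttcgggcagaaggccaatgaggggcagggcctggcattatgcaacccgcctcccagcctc
Nr1d1, chr11:98775378-98775627, minus strand: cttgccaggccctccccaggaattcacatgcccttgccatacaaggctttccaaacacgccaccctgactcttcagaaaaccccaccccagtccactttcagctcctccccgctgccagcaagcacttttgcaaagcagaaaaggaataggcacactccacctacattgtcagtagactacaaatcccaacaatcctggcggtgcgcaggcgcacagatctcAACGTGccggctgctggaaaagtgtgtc
Avp, chr2:130582589-130582838, minus strand: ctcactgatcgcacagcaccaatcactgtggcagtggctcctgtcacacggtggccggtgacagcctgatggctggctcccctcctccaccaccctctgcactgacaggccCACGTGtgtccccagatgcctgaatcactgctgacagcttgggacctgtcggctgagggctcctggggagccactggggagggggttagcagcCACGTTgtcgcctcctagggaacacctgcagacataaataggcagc
Prok2, chr6:99726393-99726642, minus strand: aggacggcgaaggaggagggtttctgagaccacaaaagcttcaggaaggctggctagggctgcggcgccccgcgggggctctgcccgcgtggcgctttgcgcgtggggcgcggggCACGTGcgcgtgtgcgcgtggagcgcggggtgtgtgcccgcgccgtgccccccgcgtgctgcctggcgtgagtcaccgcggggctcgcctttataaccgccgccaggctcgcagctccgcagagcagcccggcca
Rasl11b, chr5:74195076-74195325, plus strand: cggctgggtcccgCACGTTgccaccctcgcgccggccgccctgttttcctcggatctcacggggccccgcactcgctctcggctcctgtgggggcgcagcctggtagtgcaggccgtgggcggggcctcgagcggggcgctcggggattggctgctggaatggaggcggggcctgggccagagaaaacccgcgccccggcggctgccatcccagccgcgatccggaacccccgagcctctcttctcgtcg

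RefSeq gives Per1 a further start, at whose window neither motif was found. In the windows shown the E-box began 166 bases upstream of the start in Per1, 139 in Avp and 135 in Prok2, and the Avp window also held an E'-box 46 bases upstream. Of 124 coding genes that were lower at CT15 under U0126 and had a window, 8 held an E-box (6.45%) and 12 an E'-box (9.68%). Over all 32851 windows the shares were 6.02% and 3.85%, and over the 15438 coding genes with a window 7.87% and 4.64%. Of the 28 higher coding genes with a window, 3 held an E-box (10.7%) and none an E'-box. Rgs16, Fabp7, Dbp, Fbxl21 and Vipr2 held neither motif in this window, which says nothing of sites elsewhere. The D-box and the CRE motif (TGACGTCA) were searched as well. Of the lower coding genes with a window, 3 held a D-box (2.42%) and 5 a CRE (4.03%). Over all coding genes with a window the shares were 1.06% and 2.2%, and no higher coding gene held either. Xlr3b, among the genes looked up, held a D-box. A match is a run of letters and was not tested as a binding site.

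Genes that ERK signaling induces were examined next. Of 15 ERK feedback genes, which encode phosphatases and inhibitors that ERK activity switches on, 1 passed, as lower. The share lower was 0.693% of all genes and 0.852% of coding genes. Dusp4, a nuclear MAPK phosphatase, was at 6.56, 6.36 and 6.26 at CT4 and at 5.86, 5.73 and 5.73 at CT15, groups that did not overlap, and fell by 0.62 (SE 0.139, adjusted p = 0.00993). In vehicle it was at 7.17 ± 0.16 at CT4 and 6.17 ± 0.03 at CT15 (SD, n = 3), a difference of -1.0. Its level under U0126 was thus below vehicle at both times, by -0.78 at CT4 and -0.39 at CT15. The same side-by-side values for Dusp6, a cytoplasmic ERK phosphatase, were -0.67 at CT4 and -0.61 at CT15, and for Spry4, a Sprouty inhibitor of receptor tyrosine kinase signaling, -0.71 and -0.45. Spry2, of the same family, was -0.60 at CT4 and -0.21 at CT15. None of these CT4 differences passed (adjusted p = 0.115 for Dusp4, Spry2 and Spry4 and 0.229 for Dusp6). At CT15, 502 of 30176 genes were higher in U0126-Sham than in DMSO-Sham and 24 were lower. Of 19131 coding genes 12 were higher and 23 lower, and of 915 small nuclear RNA genes 294 were higher. At CT4 no gene passed between U0126-Sham and DMSO-Sham by limma (0%), with 1506 genes at an unadjusted p under 0.05. The study itself reported Cd59a as raised and Dusp4, Spry2 and Spry4 as lowered by U0126 at this time without light. Dusp4, Spry2 and Spry4 narrowly missed the threshold of 0.1 here, and why the readings differ was not tested. From CT4 to CT15 under U0126, Dusp6 differed by -0.15, Spry2 by 0.10 and Spry4 by -0.20, and their arrays overlapped between times.

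Of 30 immediate early genes, which neurons switch on within minutes of a stimulus, none passed under U0126, and the list median was -0.06. In vehicle 8 were lower at CT15 (1.26% of all genes were) and the median was -0.40. Nr4a1, an orphan nuclear receptor, was at 8.73, 9.37 and 8.74 at CT4 and at 8.44, 8.69 and 9.11 at CT15 under U0126, with overlap, and differed by -0.20. In vehicle it fell by 1.17 (adjusted p = 0.026). Egr1, a zinc finger transcription factor, differed by -0.23 under U0126 and by -0.68 in vehicle, and Sik1, a salt-inducible kinase that limits CREB signaling, by -0.36 and -0.65. The difference between arms did not pass for any gene of the list. It was 0.97 for Nr4a1 (95% interval 0.09 to 1.84, adjusted p = 0.367), 0.46 for Egr1 (-0.12 to 1.03, adjusted p = 0.567) and 0.29 for Sik1 (-0.07 to 0.65, adjusted p = 0.561). Fos ranged from 7.39 to 8.96 at CT4 and from 7.67 to 8.83 at CT15, so its difference of 0.35 had an SE of 0.503. The mean level of the list was 6.95 to 7.20 on the U0126 arrays at CT4 and 6.89 to 7.09 at CT15, and 7.30 to 7.55 and 6.78 to 7.20 on the vehicle arrays.

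Beyond the lists, the coding genes that were lower at CT15 under U0126 included several that share a role. These were chosen after their values were seen, so only their values are given. Among genes of mitochondrial energy metabolism, Atp5d, a subunit of ATP synthase, was at 8.69 ± 0.16 at CT4 and 8.12 ± 0.12 at CT15 (SD, n = 3) and fell by 0.57 (adjusted p = 0.000249). Cs, citrate synthase, fell by 0.49 (adjusted p = 0.000394), from 10.40, 10.35 and 10.20 to 9.93, 9.86 and 9.71. Uqcrc1 of complex III fell by 0.45, Got2, the mitochondrial aspartate aminotransferase, by 0.42, and Ndufa8 of complex I by 0.41. Among genes of peptide precursor processing, Vgf, a granin-like precursor, fell by 0.52 (adjusted p = 0.00086), Pcsk1n, which encodes the inhibitor proSAAS, by 0.52 (adjusted p = 0.0065) and Pcsk1, the prohormone convertase PC1/3, by 0.40 (adjusted p = 0.0396). The nicotinic receptor subunits Chrna3 and Chrnb2 fell by 0.51 and 0.46, and Ache, acetylcholinesterase, by 0.43. Slc7a5 and Slc3a2, which form the large neutral amino acid transporter, fell by 0.41 and 0.38. Slc3a2 was among the most even genes, at 9.08, 9.06 and 9.08 at CT4 and 8.69 on each array at CT15. The tubulin genes Tuba4a, Tubb2a and Tubb3 fell by 0.52, 0.47 and 0.39, whereas Tuba8 rose by 0.42 (adjusted p = 0.00884).

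Coding genes that were higher at CT15 spanned other roles. Cdh19, a cadherin, was at 5.75, 5.92 and 5.96 at CT4 and at 6.75, 6.48 and 6.79 at CT15 and rose by 0.80 (SE 0.184, adjusted p = 0.0113), against 1.14 in vehicle. Kcnh8, a voltage-gated potassium channel, rose by 0.62, Fzd8, a Wnt receptor, by 0.57, and Plin4, a lipid droplet protein that glucocorticoids induce, by 0.54. Cnksr2, a synaptic scaffold that binds RAF, rose by 0.46, Prkg2, a cGMP-dependent kinase, by 0.42 and Sema3e, a secreted guidance cue, by 0.40. The vehicle values for these were 0.79, 0.48, 0.52, 0.59, 0.49 and 0.71, and all of them passed there too. Of 14 ion channel genes in the list for SCN excitability, 1 passed, as lower, where 0.693% of all genes and 0.852% of coding genes did. Kcnk1, a two-pore potassium channel, fell by 0.40 (adjusted p = 0.0075) and lost the call without CT4 replicate 1, CT4 replicate 2 or CT15 replicate 3. Ndn, which encodes the imprinted protein necdin, was at 11.86, 11.87 and 11.85 at CT4 and at 11.05, 11.08 and 11.17 at CT15, a fall of 0.76 (adjusted p = 0.0147).

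The coding genes that passed in vehicle were then read under U0126, on arrays the arms did not share. Of 154 coding genes that were higher at CT15 in DMSO-Sham (0.805%), 20 were also called higher under U0126 (13%), and 140 had the same sign (90.9%, against 37% of all coding genes above zero under U0126). Of 190 that were lower in DMSO-Sham (0.993%), 52 were called lower under U0126 (27.4%) and 181 had the same sign (95.3%, against 63%). No coding gene passed in opposite directions in the arms. Read from the U0126 side, 20 of the 34 higher genes (58.8%) and 52 of the 163 lower genes (31.9%) passed in vehicle. The genes in both sets included Rasd1, Vipr2 and Cdh19 among those higher and Fabp7, Rgs16, Rasl11b, Prok2, Avp, Nr1d1, Dbp and Per1 among those lower. Sizes were smaller under U0126 in genes chosen on the vehicle arrays: the median of the 154 was 0.48 in vehicle and 0.20 under U0126, and that of the 190 was -0.46 and -0.28. In genes chosen on the U0126 arrays the order was reversed, with a median of -0.44 under U0126 and -0.30 in vehicle for those lower and of 0.51 and 0.49 for those higher. The 95% interval under U0126 lay on the same side of zero for 69 of the 154 (44.8%, against 3.81% of all coding genes) and 102 of the 190 (53.7%, against 18%). Of both lists together, 6 genes passed the test of the difference between arms. The count of 163 rests in part on single arrays, since it was 89 without CT4 replicate 1, 95 without CT15 replicate 3, 318 without CT4 replicate 3 and 261 without CT15 replicate 1, and that of 34 was 57 without CT4 replicate 3.

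**Figure D3:**
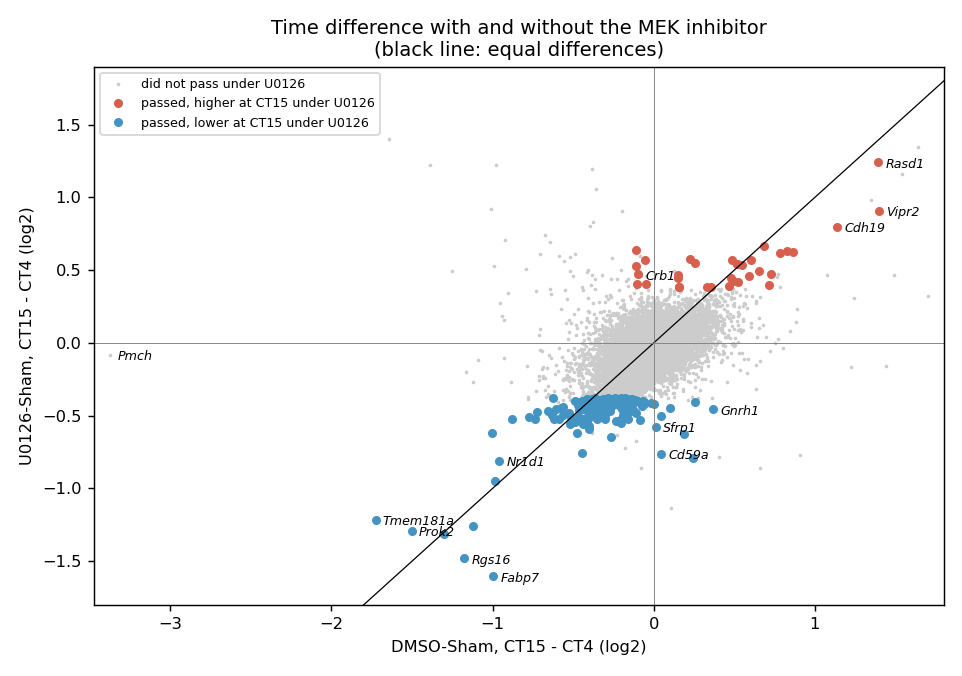
Difference between CT15 and CT4 (log2) of protein-coding genes in DMSO-Sham (horizontal) and U0126-Sham (vertical), on arrays the arms do not share; red and blue points passed under U0126 and the black line marks equal differences. Rasd1 (1.39 and 1.24) and Prok2 (-1.5 and -1.29) lie near the line, Cd59a (0.05 and -0.76) and Sfrp1 (0.01 and -0.58) lie below it, and Pmch (-3.37 and -0.08) did not pass in either arm.

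The test of the difference between arms passed for 201 genes (0.666%). Among them were 58 rRNA genes, from a class whose 62 genes hold only 23 distinct profiles, and 44 snRNA genes. The 201 are thus not as many separate measurements. Of the 201, 17 were protein-coding (0.0889% of coding genes), the difference being negative for 12 of these and positive for 5. Fabp7 fell further under U0126 than in vehicle, where it was at 9.18 ± 0.20 at CT4 and 8.18 ± 0.01 at CT15 (SD, n = 3) and fell by 1.0. The difference was -0.61 (95% interval -0.89 to -0.32, adjusted p = 0.0401). Cd59a, a membrane inhibitor of complement, was at 8.79, 8.37 and 8.32 at CT4 and at 7.82, 7.44 and 7.93 at CT15 under U0126, and at 7.75 ± 0.05 and 7.79 ± 0.22 (SD, n = 3) in vehicle. Its U0126 arrays at CT4 were thus the high ones, and the difference was -0.81 (-1.20 to -0.41, adjusted p = 0.0531). Sfrp1, a secreted Wnt antagonist, was at 6.38, 6.17 and 6.36 at CT4 and at 5.71, 5.85 and 5.62 at CT15 under U0126, against 6.10 ± 0.10 and 6.11 ± 0.05 in vehicle, a difference of -0.59 (adjusted p = 0.0661). Ehd3, an endosomal recycling protein, was at 9.48, 9.37 and 9.32 and at 9.05, 8.97 and 8.91 under U0126, and at 9.25 ± 0.07 and 9.23 ± 0.05 in vehicle, a difference of -0.39 (-0.56 to -0.23, adjusted p = 0.0191).

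Other genes rose in vehicle and did not pass under U0126. Clk1, a kinase of splicing factors, was at 7.65, 7.60 and 7.91 at CT4 and 7.58, 7.83 and 7.68 at CT15 under U0126, groups that overlapped, and rose by 0.50 in vehicle (adjusted p = 0.000619). The difference between arms was -0.52 (95% interval -0.75 to -0.29, adjusted p = 0.0246). Slc38a2, the amino acid transporter SNAT2, was at 8.80, 8.76 and 8.79 at CT4 and 8.93, 8.85 and 8.93 at CT15 under U0126 and rose by 0.53 in vehicle, a difference of -0.41 (-0.58 to -0.23, adjusted p = 0.0247). Lrp11, a receptor-like membrane protein, fell by 0.53 in vehicle and differed by 0.03 under U0126 (difference 0.56, adjusted p = 0.0772). When p-values were adjusted over coding genes alone, a choice made after seeing the data, 3 coding genes passed: Clk1, Ehd3 and Slc38a2. Fabp7 lost the call without DMSO-Sham CT4 replicate 3, DMSO-Sham CT15 replicate 2 or U0126-Sham CT15 replicate 2. Ehd3 lost it without DMSO-Sham CT4 replicate 3, DMSO-Sham CT15 replicate 3, U0126-Sham CT4 replicate 1 or U0126-Sham CT15 replicate 3. The 201 genes became 123 without U0126-Sham CT4 replicate 2, 85 without U0126-Sham CT15 replicate 2 and 86 and 89 without DMSO-Sham CT15 replicates 2 and 3.

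**Figure D4:**
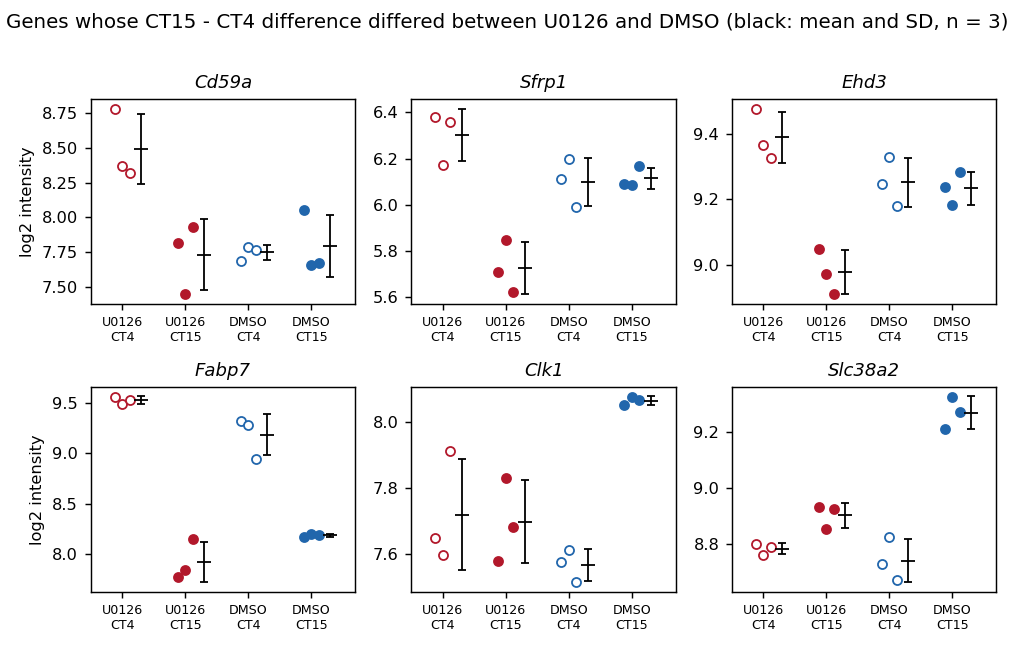
Log2 intensity of 6 genes whose difference between CT15 and CT4 differed between U0126-Sham (red) and DMSO-Sham (blue), CT4 open and CT15 filled; black bars give the mean and SD (n = 3 arrays). Cd59a, Sfrp1 and Ehd3 fall under U0126 and differ by at most 0.05 in vehicle, and Clk1 and Slc38a2 rise in vehicle by 0.50 and 0.53 and by less under U0126 (-0.02 and 0.12).

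The class with the most genes higher at CT15 under U0126 was small nuclear RNAs, the RNA components of the spliceosome and related particles. Of 915 snRNA genes, many of them near-identical copies, 291 were higher (31.8%, against 1.46% of all genes) and 1, Gm25205, was lower, with a class median of 0.20. Because copies share probes, the 291 genes held only 230 distinct profiles. The class mean was 4.66, 4.78 and 4.81 on the CT4 arrays and 4.92, 5.06 and 4.92 on the CT15 arrays, so the groups did not overlap. Rnu2-10, a U2 gene, was at 8.73, 9.35 and 9.90 at CT4 and at 10.05, 10.39 and 10.12 at CT15 and rose by 0.86 (adjusted p = 0.0389). Gm24497, annotated as an snRNA, was at 7.89, 8.46 and 9.0 at CT4 and at 9.26, 9.54 and 9.28 at CT15 and rose by 0.91 (SE 0.253, adjusted p = 0.0313). Gm23444 and Gm23472, which share their values, rose by 0.88 and Gm26316 by 0.88. In all of these CT4 replicate 1 was the lowest array. Of 442 genes higher, 291 were thus snRNAs. Without CT4 replicate 1 it was 93 of 163, and without CT15 replicate 2, the highest array of the class, 92 of 221, so that snRNAs were then no longer the majority.

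In vehicle the snRNA class had a median of -0.02. Of its 915 genes, 2, Gm22576 and Gm22935, were higher (1.07% of all genes were) and 40 were lower (1.26% of all genes were). In the test of the difference between arms 44 passed, all in the positive direction (0.553% of all genes did so). In DMSO-Sham, CT15 replicate 1 was at 4.80 and the other CT15 arrays at 4.63 and 4.62, while the CT4 arrays were at 4.64, 4.78 and 4.78. With light added, the class median was 0.13 under U0126, with 9 genes higher (0.285% of all genes were), and 0.16 in DMSO, with 169 higher (1.31%). The ribosomal RNA genes, 62 of which were read, overlapped between times under U0126. Rn5s, a 5S rRNA gene, was at 11.02, 11.04 and 11.46 at CT4 and 11.30, 11.96 and 11.46 at CT15 and differed by 0.40 (SE 0.298, adjusted p = 0.524). In vehicle it fell by 1.83, to 9.74 ± 0.72 at CT15 (SD, n = 3), and the difference between arms was 2.23 (95% interval 1.36 to 3.09, adjusted p = 0.0103). The n-R5s genes share its values.

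**Figure D5:**
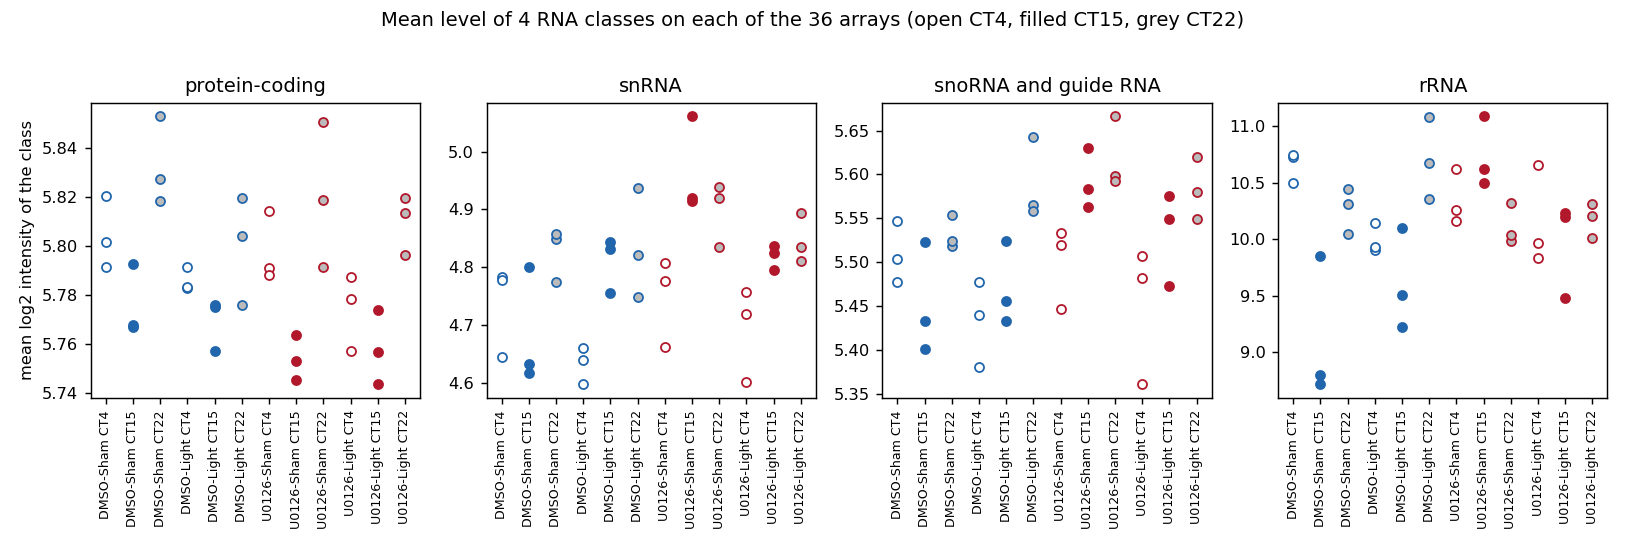
Mean log2 intensity of the protein-coding, snRNA, snoRNA with guide RNA, and rRNA genes on each of the 36 arrays, by group (U0126 red, DMSO blue; CT4 open, CT15 filled, CT22 grey). The snRNA mean is 4.66 to 4.81 on the U0126-Sham CT4 arrays and 4.92 to 5.06 at CT15, while the rRNA mean is lowest on 2 of the 3 DMSO-Sham CT15 arrays (8.72 and 8.80, the other at 9.85).

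Of 992 small nucleolar and guide RNA genes, which direct chemical modification of other RNAs, 28 were higher at CT15 under U0126 (2.82%, against 1.46% of all genes) and 10 lower (1.01%, against 0.693%). Gm25711 was at 3.13, 3.20 and 3.17 at CT4 and at 4.26, 3.96 and 4.61 at CT15 and rose by 1.11 (SE 0.205, adjusted p = 0.00316), at the dim end of the array. Snora31 was at 5.71, 6.00 and 6.11 at CT4 and at 6.63, 7.07 and 6.93 at CT15 and rose by 0.94 (SE 0.175, adjusted p = 0.0033). In vehicle it differed by -0.14, and the difference between arms was 1.08 (95% interval 0.57 to 1.59, adjusted p = 0.0418). Gm25107 rose by 1.02 (adjusted p = 0.044) and had the same kind of contrast, with -0.82 in vehicle and a difference of 1.84 (adjusted p = 0.0493). Gm22748 fell from 8.37 ± 0.08 to 7.41 ± 0.12 (SD, n = 3), a difference of -0.96 (adjusted p = 0.00544). Snora16a fell by 0.76 under U0126 and by 1.86 in vehicle. Snord8 was at 7.10, 7.22 and 7.46 at CT4 and at 7.65, 8.77 and 7.98 at CT15 and rose by 0.87 (adjusted p = 0.0583). Of other classes, the pseudogene Gm17229 rose by 0.91 (adjusted p = 0.01), from 5.32, 5.10 and 5.61 to 6.58, 6.12 and 6.04.

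Of 631 microRNA genes, 29 were higher at CT15 (4.6%, against 1.46% of all genes) and 2, Mir1952 and Mir219a-2, were lower (0.317%, against 0.693%). The array reads a precursor locus and not the mature strand. RefSeq gave mature sequences for 20 of the 31, and the 4 shown are the let-7 members that passed and a pair of microRNAs studied in the nervous system, written 5′ to 3′ with the seed in capitals.
let-7c-5p: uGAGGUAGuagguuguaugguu
let-7f-5p: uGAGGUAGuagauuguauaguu
miR-493-3p: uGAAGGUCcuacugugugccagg
miR-219a-5p: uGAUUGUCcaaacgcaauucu

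The let-7 members that passed share a seed and both rose. So did Mir680-1 and Mir680-3, whose mature sequences are identical, by 0.38 (adjusted p = 0.0404) and 0.41 (adjusted p = 0.063). As 29 of the 31 microRNA genes that passed were higher, a shared direction was largely set by that choice and says nothing of a seed. The largest rise of the class was in the dim Mir28c, from 3.68, 3.76 and 3.77 to 4.60, 4.38 and 5.00 (0.92, adjusted p = 0.0103). Mirlet7c-1 was at 4.04, 4.17 and 4.36 at CT4 and at 4.79, 4.81 and 4.84 at CT15 and rose by 0.62 (adjusted p = 0.0145), where in vehicle it differed by -0.11. Mirlet7f-1 was at 4.55, 4.75 and 4.94 at CT4 and at 5.35, 5.52 and 5.34 at CT15 and rose by 0.66 (adjusted p = 0.0536), and in vehicle it rose by 1.3. Neither difference between arms passed (adjusted p = 0.123 and 0.377). Mir493, of an imprinted cluster, rose by 0.83, from 6.63 ± 0.22 to 7.46 ± 0.51 (SD, n = 3, adjusted p = 0.0294). Mir219a-2, whose mature form acts in the SCN clock and in oligodendrocytes, fell by 0.52, and its adjusted p of 0.09997 stood at the threshold.

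Markers of cell types gave few calls. None of 8 astrocyte, 9 oligodendrocyte, 5 oligodendrocyte precursor, 9 microglial, 10 endothelial, 13 meningeal, 6 ependymal, 6 choroid plexus and 6 blood cell genes passed under U0126, nor did any of the 8 reactive astrocyte genes. Of 8 neuronal markers, Tubb3 and Nefl, a neurofilament subunit, were lower, by 0.39 and 0.41, and the list mean was 10.09 to 10.27 at CT4 and 9.92 to 10.08 at CT15. Of 10 markers of neurons next to the SCN, 4 were lower, with a median of -0.43. These were Oxt, the oxytocin precursor, Th, tyrosine hydroxylase, Npy, neuropeptide Y, and Gnrh1, the gonadotropin-releasing hormone precursor. For both lists, the share of all genes that were lower was 0.693%, and of coding genes 0.852%. Oxt was at 11.32, 10.60 and 11.42 at CT4 and at 9.61, 10.69 and 10.19 at CT15, groups that overlapped, and fell by 0.95 (SE 0.307, adjusted p = 0.0624). In vehicle it fell by 0.98. The list mean was 6.55 to 7.19 at CT4 and 6.27 to 6.73 at CT15. Avp is also made by neurons outside the SCN, and the part of these markers in its fall was not tested. Of 15 acute cytokine genes none passed, but the list median was 0.59, and Il1b, interleukin 1 beta, spread from 5.19 to 9.01 on the CT15 arrays against 5.74 to 6.97 at CT4.

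The light arm gave a second set of arrays under the inhibitor. From CT4 to CT15 in U0126-Light, 25 coding genes were higher (0.131%) and 64 lower (0.335%), and of all genes 168 passed (0.557%), from 40 without U0126-Light CT15 replicate 3 to 309 without U0126-Light CT15 replicate 1. Of the 163 coding genes that were lower in U0126-Sham, 42 passed there (25.8%) and 158 had the same sign (96.9%, against 53% of all coding genes). Of the 34 that were higher, 12 passed and 33 had the same sign (97.1%, against 47%). Fabp7 fell by 1.61 in U0126-Light, Rgs16 by 1.23, Avp by 1.29, Rasl11b by 1.07, Prok2 by 0.79 and Nr1d1 by 0.70, and each passed. Rasd1 rose by 1.05 and Vipr2 by 1.06. Per1 differed by -0.16 in U0126-Light (adjusted p = 0.375), against -0.45 in U0126-Sham, and Tmem181a by -0.55 (adjusted p = 0.299), and whether these differ between Sham and Light was not tested. At CT22, later in the night, the U0126-Sham mean of Fabp7 was back at 9.43 ± 0.07 and that of Avp at 10.92 ± 0.17 (SD, n = 3), near their CT4 means of 9.52 and 10.64. Rgs16 at 9.63 ± 0.15, Prok2 at 5.72 ± 0.12 and Rasd1 at 8.02 ± 0.12 lay between their CT4 and CT15 means, and Dbp at 8.04 ± 0.09 was still at its CT15 mean of 8.04 ± 0.08.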

How the data were processed

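The submitters' arrays were GeneChip Mouse Transcriptome Assays, labelled from 100 ng of total RNA per pool. The deposited values are log2 intensities per probe set, which the authors made in R with oligo and limma, and the exact normalization call is not given in the sources used here. No further scaling was applied, although the medians of the compared groups did not overlap. After removal of 6732 control probe sets from 72688, the other 65956 were tested with limma 3.58.1 in R 4.3.3 in 1 fit over the 12 groups, with no replicate block, and p-values were adjusted by Benjamini-Hochberg. The thresholds (adjusted p at most 0.1, fold above 1.3) take the P-value of the study's methods as adjusted, which only its plot legends state. A gene was 1 symbol read by its brightest probe set. 2176 probe sets with several symbols and 33142 with none were not read as genes. Of 30176 genes, 29849 matched RefSeq by symbol and 325 by ID or synonym. RNA classes are those of RefSeq. Intervals are 95% limma intervals and do not cover the choice of pools. The labels call the arrays biological replicates, and their number, 3 a group, limits the precision: an exact two-sided permutation of 3 against 3 arrays cannot give a p below 0.1.

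The text names the 12 largest increases and the 12 largest decreases that passed with groups that did not overlap, and all clock and output genes. It also names the 6 largest differences between arms, among which the rRNA genes share their values. The rule also took up to 4 members of each other gene list, ERK feedback genes and sex-linked genes, of which some stand only in counts and ranges. Other genes were chosen after their values were seen. The comparison, its gene lists and tests were chosen with earlier results of these data known. The fit was tested on simulated data with known changes. Alternatives were a replicate block, fewer arrays, filters on dim probe sets, other scalings, trend and robust options, array weights, other thresholds, covariates and leaving out each array.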

Additional observations from a re-analysis of the deposited data

Results flagged for a closer look

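The differences between CT15 and CT4 that differed between U0126-Sham and DMSO-Sham by the limma test were looked at again (log2, U0126-Sham minus DMSO-Sham). Negative differences were -0.81 for Cd59a, -0.74 for Slc22a8, a transporter of meningeal cells and choroid plexus, -0.61 for Fabp7, -0.59 for Sfrp1, -0.54 for Yae1d1, -0.52 for Clk1, -0.49 for Gm11295, -0.44 for Serpinb1c, -0.41 for Dnajc28, -0.41 for Slc38a2, -0.39 for Ehd3 and -0.38 for Cox20, which encodes a cytochrome c oxidase assembly factor. Positive differences were 0.44 for Olfr101, 0.48 for Mrgprb8, 0.56 for Lrp11, 0.64 for Gm7265 and 0.72 for Pou5f2. Among non-coding genes the values were 2.63 for the pseudogene Gm9637 and 2.23 for each of Rn5s, n-R5s100, n-R5s103, n-R5s104 and n-R5s105, which share their probe sets' values. In these rRNA genes the vehicle arrays at CT15 were the low ones, and in Gm9637 the vehicle arrays at CT4 were at 5.50 ± 1.43 (SD, n = 3) against 3.39 ± 0.22 under U0126. Slc22a8 had an adjusted p of 0.0997, at the threshold.

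Probe sets with no gene symbol were in no count of genes. Of 33142 such probe sets, 2333 were higher at CT15 under U0126 and 86 were lower. Of 30638 probe sets with 1 symbol, 452 were higher and 213 lower, so those without a symbol were called higher far more often. Their median difference was 0.06 under U0126 and -0.03 in DMSO-Sham. In DMSO-Sham 308 were higher and 345 lower. In U0126-Light 675 were higher and 64 lower. Their median level was 4.12, against 5.35 for probe sets with a symbol.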

How the results depend on the processing

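Under the alternatives run, the 442 genes higher and 209 lower at CT15 became 293 and 338 with quantile normalization and 903 and 2254 with no fold threshold. Of the genes that passed, 68.3% were higher after cyclic loess. With p-values adjusted over coding genes alone (added after seeing the data), 35 coding genes were higher and 170 lower. With the adjustment over all probe sets these were 34 and 163. Coding genes numbered 292 higher and 1992 lower with no fold threshold, and 250 lower with quantile normalization. Leaving out 1 array gave 163 to 531 genes higher, 124 to 386 lower, 25 to 57 coding genes higher, 89 to 318 lower and 92 to 304 snRNA genes higher. The vehicle count of 701 was 193 on its 6 arrays alone, 2711 with no fold threshold and 351 to 1020 without 1 array. The difference between arms, passed by 201 genes, was passed by 99 at an adjusted p of 0.05 and by 85 to 261 without 1 array. Adjusted over coding genes alone, 3 coding genes passed it, against 17 with the adjustment over all probe sets. In U0126-Light 40 to 309 genes passed without 1 array. With a replicate block, 438 genes were higher and 207 lower, 693 passed in vehicle and 184 between arms. Deviations of same-numbered U0126-Sham arrays correlated at 0.06, -0.08 and 0.11, and 1 of 3 matched best with its own number, so the numbers were not taken as pairs. For single genes that passed the test of the difference between arms, 566 values were read under alternatives. Of these, 375 kept the call and 191 lost it, and no sign reversed. Of 4548 single-gene values of CT15 minus CT4 under U0126, 3921 kept both their sign and their status, passed or not. Of the others, 583 lost the call and 32 gained it. As genes that had not passed are included, the 3921 do not measure how stable the calls were. The 12 reversals were all in genes that had not passed. Clk1 was 0.0065 after cyclic loess and Pmch 0.065 with the Xist covariate, and without 1 array Clk1 lay between -0.088 and 0.075, Pmch between -1.86 and 1.83, Bhlhe40 between -0.14 and 0.061, Nr4a1 between -0.38 and 0.013, Vip between -0.030 and 0.54 and Xist between -2.99 and 0.38. Depth does not apply to arrays, and dim probe sets such as Gm25711 lie near background.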
